A study of Homo sapiens with 6 samples.

Results

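HDAC1 to HDAC10, the 10 genes of the class I and class II histone deacetylases, which use zinc for catalysis, were followed in new and in total RNA of MOLM-13 cells after inhibition of the opposing acetyltransferases. They were chosen by name, through their Entrez identifiers, and are 10 of the 25420 genes listed in the tables, with 40 of the 58136 annotated 3′ UTR entries. All 10 had reads in each of the 6 libraries.

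Histone deacetylases remove acetyl groups from lysines of histones and other proteins and so reverse the work of acetyltransferases such as CBP and p300. The class I enzymes HDAC1, HDAC2, HDAC3 and HDAC8 are mostly nuclear, and all but HDAC8 work as the catalytic subunits of corepressor complexes. The class IIa proteins HDAC4, HDAC5, HDAC7 and HDAC9 bind transcription factors of the MEF2 family, have little catalytic activity of their own and move between nucleus and cytoplasm, whereas the class IIb enzymes HDAC6 and HDAC10 act mainly in the cytoplasm, on tubulin and on polyamines, respectively.

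MOLM-13 is an established human line of acute myeloid leukaemia. Cells of both groups received 100 µM 4-thiouridine (4sU), a uridine analogue that is built into new RNA, for the last 1 h of a 2 h treatment. The treated group was kept in 10 µM C646, a small-molecule inhibitor of the acetyltransferases CBP and p300, and the control group in DMSO, with 3 libraries in each. Once alkylated, 4sU in the RNA pairs so that a sequenced T appears as C, and reads with such conversions (T > C reads) stand for RNA made during the labelling. The design holds 1 cell line, 1 dose and 1 time, without an unlabelled library, so that the level of T > C reads without 4sU was not measured here. Neither the labels nor the methods say whether the 3 libraries of a group came from separate cultures, and the p-values then measure only the spread between these libraries, which may be technical.

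The libraries held 7252597 to 10225448 reads on 3′ UTRs, of which 477824 to 833410 were T > C reads, and T > C reads made up 8.79% ± 0.0637 (SD, n = 3) of them under DMSO and 6.48% ± 0.203 (SD, n = 3) under C646. All 9 myeloid markers examined, PTPRC, CD33, SPI1, CEBPA, FLT3, MEIS1, HOXA9, LYZ and MPO, had at least 100 reads in every library. Of markers of other cell types, CD3E, HBB and ALB were listed at 0 in every library, and MS4A1, EPCAM and COL1A1 had 0 to 68 reads. Between 49.7% and 51.6% of the filtered reads lay on 3′ UTRs in DMSO and 56.3% to 62.0% in C646. The part of this difference in the results was examined only through another scaling, by the totals of all filtered reads.

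The promoters of 3 members are shown, those of HDAC1, whose shares of T > C reads overlapped between the groups, of HDAC7, which fell in T > C reads, and of HDAC10, whose T > C reads dropped to 0 in every C646 library. Each window runs from 250 bases before to 50 bases after the start of the gene in RefSeq (GRCh38.p14), is printed 5′ to 3′ on the strand of the gene, and has in capitals the matches on either strand to the GC box GGGCGG, the CCAAT box CCAAT and the ETS core CCGGAA. Matches that overlap appear as 1 run of capitals.
HDAC1 promoter, chr1:32291833-32292132, plus strand: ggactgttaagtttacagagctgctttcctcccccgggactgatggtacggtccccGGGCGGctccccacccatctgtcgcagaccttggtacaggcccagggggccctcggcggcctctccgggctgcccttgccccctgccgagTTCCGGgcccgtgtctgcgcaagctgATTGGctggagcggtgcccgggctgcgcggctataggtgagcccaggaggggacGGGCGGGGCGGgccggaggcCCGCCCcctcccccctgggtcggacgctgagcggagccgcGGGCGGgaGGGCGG
HDAC7 promoter, chr12:47819854-47820153, minus strand: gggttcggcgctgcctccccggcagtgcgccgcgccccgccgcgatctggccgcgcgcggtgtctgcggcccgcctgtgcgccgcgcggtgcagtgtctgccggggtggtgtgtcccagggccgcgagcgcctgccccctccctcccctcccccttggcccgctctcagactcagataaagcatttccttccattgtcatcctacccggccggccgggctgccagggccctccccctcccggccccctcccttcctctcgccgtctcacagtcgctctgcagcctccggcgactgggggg
HDAC10 promoter, chr22:50251216-50251515, minus strand: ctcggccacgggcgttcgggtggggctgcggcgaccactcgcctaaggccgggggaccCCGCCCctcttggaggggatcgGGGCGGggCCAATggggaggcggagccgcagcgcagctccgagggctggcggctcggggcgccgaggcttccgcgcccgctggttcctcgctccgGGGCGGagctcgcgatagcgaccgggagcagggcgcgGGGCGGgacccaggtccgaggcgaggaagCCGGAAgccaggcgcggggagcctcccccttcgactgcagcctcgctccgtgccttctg

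The HDAC1 window held 6 GC boxes, 1 CCAAT box and 1 ETS core, and 73.7% of its bases were G or C. That of HDAC10 was alike in these letters, with 4 GC boxes, 1 CCAAT box and 1 ETS core at 77.0% G and C. A link between promoter letters and the change in T > C reads was not tested. The HDAC7 window held none of the 3 motifs at 74.7% G and C. Over all 35116 RefSeq promoter windows, 45% held a GC box, 34.6% a CCAAT box and 17.2% an ETS core, and the median share of G and C was 58.7%. RefSeq gave 19 windows for 9 of the 10 genes. HDAC4 and HDAC9 have 5 windows each and HDAC6 has 3. Of the 19 windows, 8 held a GC box, 7 a CCAAT box and 3 an ETS core, near the shares of all windows, while the cyclic AMP response element TGACGTCA, held by 1.85% of all windows, was found in none of the 19. Some windows of HDAC6 and of HDAC9 overlap, so that the same match can count more than once. By gene, 6 of the 9 had a GC box, 4 a CCAAT box and 3 an ETS core in at least 1 window. A match is a run of letters and was not tested as a binding site.

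The reads lie at the 3′ ends of the genes, in GRCh38 coordinates. The main entries of the class I genes lie at chromosome 1, 32333045 to 32333623 (plus strand, HDAC1), chromosome 6, 113936156 to 113941088 (minus, HDAC2), chromosome 5, 141620876 to 141621467 (minus, HDAC3) and chromosome X, 72329516 to 72330076 (minus, HDAC8). Those of class IIa lie at chromosome 2, 239048168 to 239053096 (minus, HDAC4), chromosome 17, 44076753 to 44078375 (minus, HDAC5), chromosome 12, 47782711 to 47783840 (minus, HDAC7) and, for HDAC9, at the places on chromosome 7 given with its ends. The HDAC6 entry lies at chromosome X, 48824613 to 48824982 (plus). In GENCODE release 44 all of them hold 3′ UTR, and 0 to 0.704% of the reads of a member were mapped to more than 1 place.

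In DMSO, the share of T > C reads among the reads of a gene, which rises with the part of the mRNA made during the 1 h of labelling, set HDAC4 and HDAC9 apart from the other members. T > C reads made up 25.9% ± 1.87 (SD, n = 3) of the reads of HDAC4 and 23.9% ± 1.23 (SD, n = 3) of those of HDAC9, at percentiles 86.6 and 84.8 of the 7468 genes averaging 100 or more reads per library. The median of these genes was 11.0%. HDAC4 and HDAC9 did not differ beyond their spread.

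HDAC8 followed with 12.1% ± 1.20 (SD, n = 3), at percentile 55.1. HDAC3 with 9.93% ± 2.35, HDAC5 with 8.10% ± 5.04, HDAC7 with 7.98% ± 1.67, HDAC2 with 7.64% ± 0.426 and HDAC1 with 6.89% ± 0.608 (SD, n = 3 each) came next, and each of these lay within the spread of its neighbours. At the low end stood both class IIb genes, HDAC6 with 5.74% ± 1.43 and HDAC10 with 3.92% ± 0.624 (SD, n = 3 each), the latter at percentile 8.68. The share also depends on the number of T bases that a read can show as converted. The main 3′ UTR entry of HDAC10 is 13% T, with 42 T among its 323 bases, against 21.8% to 34.8% in the main entries of the other 9 genes.

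Set against the total of all reads, T > C reads of HDAC4 and HDAC7 fell in C646-treated cells, those of HDAC2 passed the threshold on p with a smaller change, and those of HDAC1 and HDAC9 had the fold changes nearest to 0. Of the 7 members with enough T > C reads for the test, 2 were called lower and 0 higher by edgeR's quasi-likelihood test, at an adjusted p (Benjamini-Hochberg over 7722 genes) of at most 0.01 and a log2 fold change of at least 1 in size. This was 28.6% of the members tested, against 33.0% of all genes tested, and 2.97% of all genes were called higher, so that the number called among the members was near that of the background. The median log2 fold change of the 7 was −0.71, against −0.83 over all genes tested. The fall over all genes depends on the scaling: with TMM on the T > C reads themselves the median was 0.01 in place of −0.83, and HDAC1, HDAC2, HDAC3 and HDAC9 then had positive log2 fold changes. Relative to the median of all genes, HDAC9, HDAC1, HDAC3 and HDAC2 lay 0.79, 0.61, 0.19 and 0.12 above it in the fit scaled by all reads, and HDAC8, HDAC4 and HDAC7 lay 0.36, 0.42 and 0.49 below it. HDAC5, HDAC6 and HDAC10 had too few T > C reads to pass edgeR's filter on low counts and are described apart.

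The T > C reads can also be set against the other reads of the same gene and library, which needs no scaling between libraries. By this measure, the T > C odds, 4 of the 7 members were called lower and 0 higher, against 38.3% lower and 0.79% higher among 7722 genes. These were HDAC2 and HDAC8 of class I and HDAC4 and HDAC7 of class IIa. The median log2 change of the odds was −1.03 over the 7 members and −1.0 over all genes.

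In all reads, which hold old and new RNA together, 1 of the 10 members was called lower, HDAC10, and 0 higher, where 1.88% of 10851 genes were called lower and 5.89% higher. The median log2 fold change of the members was 0.16, against −0.00 over all genes. In bulk libraries such as these, fewer cells with an RNA and less of that RNA per cell cannot be told apart.

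**Figure D1:**
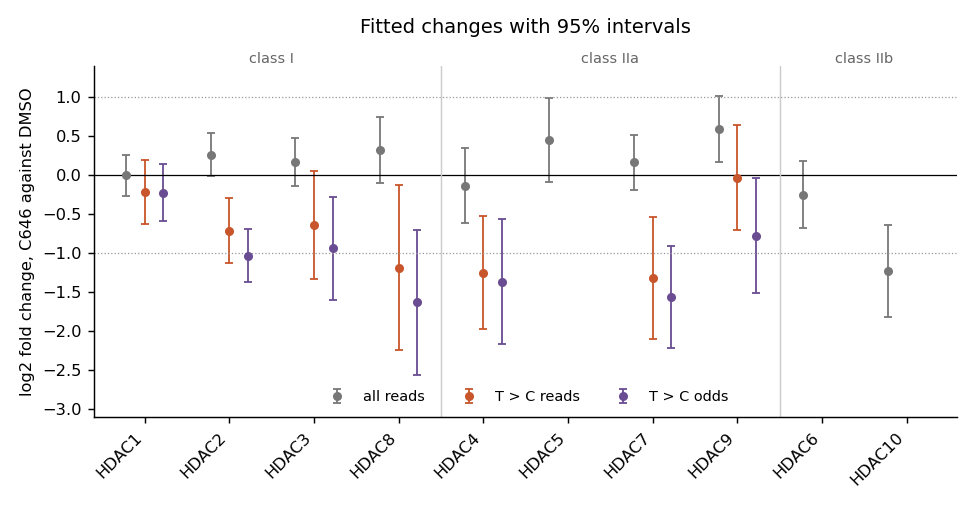
Fitted log2 fold changes of C646 against DMSO (vertical axis) with 95% intervals for all reads (grey), T > C reads scaled by all reads (orange) and T > C odds (purple); dotted lines mark a log2 fold change of 1 in either direction. All 7 members tested lie below 0 in T > C reads, but HDAC1, HDAC2, HDAC3 and HDAC9 lie above 0 with TMM taken from T > C reads; HDAC5, HDAC6 and HDAC10 had too few T > C reads to be tested.

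HDAC1 and HDAC2 are close paralogues that share the SIN3, NuRD and CoREST corepressor complexes. The T > C reads of HDAC1 (Entrez 3065) came to 150, 140 and 129 under DMSO and to 106, 134 and 149 under C646, in the order of replicates 1, 2 and 3 as throughout. The raw counts of the groups overlapped, as did those scaled by all reads, 17.5 ± 1.80 CPM in DMSO and 15.1 ± 1.23 CPM in C646 (SD, n = 3 each). The log2 fold change was −0.21 (SE 0.20, adjusted p = 0.371, edgeR's quasi-likelihood test), which is 0.61 above the median of all genes, and it was 0.63 (adjusted p = 0.0158) when scaled by TMM on the T > C reads.

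For HDAC2 (Entrez 3066), 196, 148 and 188 T > C reads were counted in DMSO and 85, 118 and 149 in C646. Scaled by all reads these were 22.2 ± 2.73 CPM and 13.5 ± 1.96 CPM (SD, n = 3 each), and all 3 C646 values were under the lowest DMSO value. The log2 fold change of −0.71 (SE 0.20, adjusted p = 0.00403, edgeR's quasi-likelihood test) passed the threshold on p but not that on the fold, and TMM on the T > C reads gave 0.13 (adjusted p = 0.665). The T > C odds of HDAC2 fell by 1.03 on the log2 scale (SE 0.16, adjusted p = 1.72e-05, edgeR's quasi-likelihood test). Left out in turn, DMSO replicate 3 and C646 replicate 1 took this change to −0.98 and −0.97, just short of the fold threshold, at adjusted p of 0.000544 and 8.96e-05.

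In all reads HDAC2 stood higher, not lower, in C646. Its reads came to 2627, 2021 and 2315 under DMSO and to 2412, 2995 and 3584 under C646, or 290 ± 19.2 and 347 ± 25.1 scaled CPM (SD, n = 3 each). The C646 libraries lay above the DMSO libraries in scaled CPM, as they did in 24.5% of the 10851 genes tested in all reads, and the log2 fold change of 0.26 (SE 0.13, adjusted p = 0.131, edgeR's quasi-likelihood test) was not called. For HDAC1, all reads came to 2278, 1844 and 1985 under DMSO and to 1989, 2045 and 2498 under C646, with a log2 fold change of −0.00 (SE 0.12, adjusted p = 0.991).

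The conversions per T > C read were lower in C646 without overlap in HDAC1, HDAC2 and HDAC6, 3 of the 9 members with T > C reads in every library, against 25.7% of 7099 genes, a share near the background. A T > C read of HDAC2 carried 2.37 ± 0.125 conversions in DMSO and 1.65 ± 0.260 in C646, and one of HDAC1 1.41 ± 0.139 and 0.884 ± 0.166 (SD, n = 3 each), without overlap in either gene (p = 0.1 each in the two-sided exact permutation test, the smallest that 3 libraries against 3 allow). In 2 C646 libraries the conversions counted on the T positions of the HDAC1 entry were fewer than its T > C reads, 0.791 and 0.785 per read, so that some of these reads had no conversion counted within the entry.

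HDAC3, the catalytic subunit of the NCoR complex, had T > C reads that overlapped between the groups. They (Entrez 8841) came to 94, 53 and 47 under DMSO and to 16, 38 and 82 under C646. C646 replicate 3 lay among the DMSO libraries and C646 replicate 1 far below them, and the log2 fold change of −0.64 (SE 0.34, adjusted p = 0.108, edgeR's quasi-likelihood test) was not called. Without C646 replicate 3, HDAC3 was called lower in T > C reads, at −1.21 (adjusted p = 0.00444), and in T > C odds, at −1.35 (adjusted p = 0.00179) in place of −0.94 (SE 0.32, adjusted p = 0.0149). All reads of HDAC3 came to 756, 554 and 604 under DMSO and to 580, 701 and 1047 under C646, and C646 replicate 3 was the highest in scaled CPM, at 104 against 76.7 to 85.9 in the other 5 libraries.

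HDAC8 is the class I enzyme that acts outside the large corepressor complexes and deacetylates the cohesin subunit SMC3. For this gene (Entrez 55869), 21, 16 and 23 T > C reads were counted in DMSO and 7, 12 and 9 in C646, without overlap. The log2 fold change of −1.19 (SE 0.52) had an adjusted p of 0.0516 by edgeR's quasi-likelihood test and was not called. In the T > C odds, HDAC8 was called lower at −1.63 (SE 0.45, adjusted p = 0.00356). All reads came to 183, 142 and 171 under DMSO and to 144, 228 and 303 under C646, which overlapped when scaled (log2 fold change 0.32, SE 0.20, adjusted p = 0.239). The entries of HDAC8 with reads overlap the gene ENSG00000285547 on the same strand, and the part of its transcripts in the HDAC8 counts was not tested. Without DMSO replicate 1, 2 or 3 or C646 replicate 3 the adjusted p of the odds was 0.0141, 0.0133, 0.0216 and 0.0234, at log2 changes of −1.67, −1.68, −1.53 and −1.35, so that p and not the fold ended the call.

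**Figure D2:**
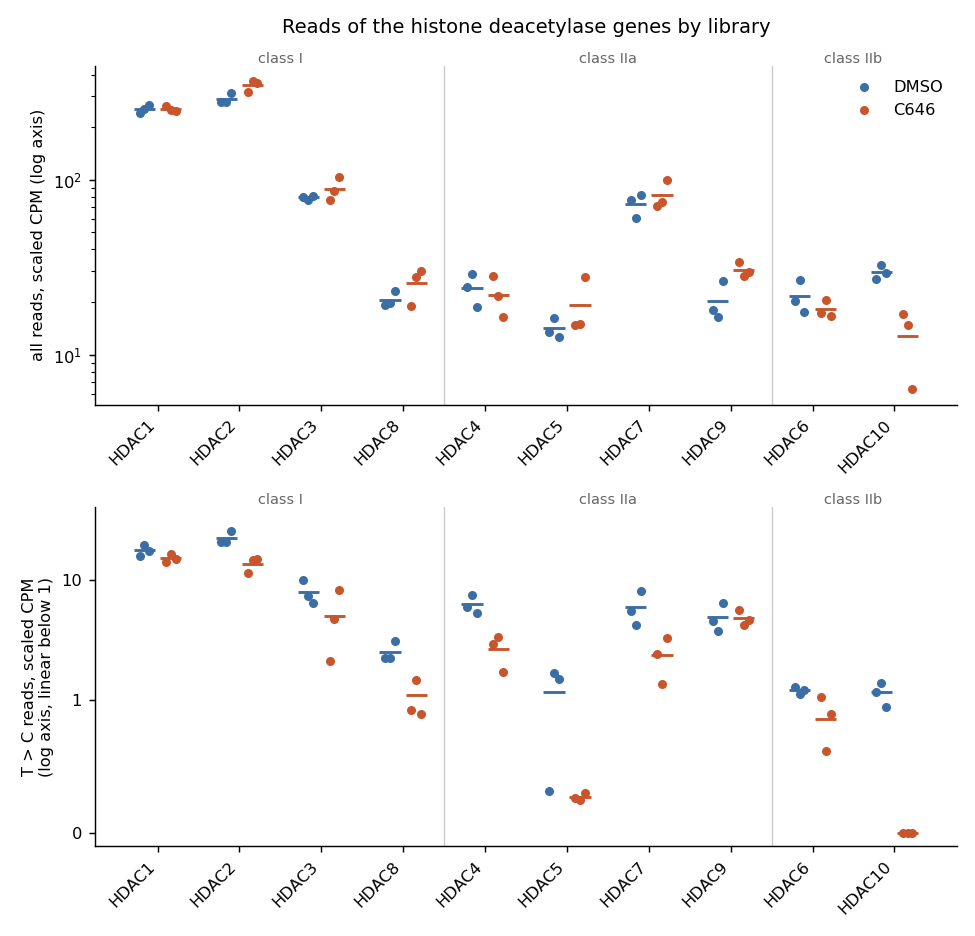
All reads (upper panel, log axis) and T > C reads (lower panel, log axis that is linear below 1) of each gene in CPM scaled by the TMM-scaled total of all reads, with 1 point per library, DMSO in blue and C646 in orange, and a bar at the mean of 3 libraries. HDAC10 is the member that lies lower in C646 in both panels without overlap, and its T > C reads are 0 in the 3 C646 libraries.

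In class IIa, HDAC4 and HDAC7 fell in T > C reads and were not called in all reads. The T > C reads of HDAC4 (Entrez 9759) came to 56, 54 and 39 under DMSO and to 22, 27 and 17 under C646, with each C646 library below each DMSO library. The log2 fold change was −1.25 (SE 0.36, adjusted p = 0.00405, edgeR's quasi-likelihood test), 0.42 below the median of all genes, as the share of T > C reads went from 25.9% ± 1.87 to 12.0% ± 2.92 (SD, n = 3 each). All reads came to 232, 210 and 140 under DMSO and to 214, 176 and 165 under C646, which overlapped (log2 fold change −0.13, SE 0.22, adjusted p = 0.680).

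HDAC7 (Entrez 51564), a class IIa member known from lymphoid and endothelial cells, had 52, 30 and 60 T > C reads in DMSO and 18, 11 and 33 in C646. Scaled by all reads the groups did not overlap, at 5.91 ± 1.99 CPM and 2.33 ± 0.964 CPM (SD, n = 3 each), while the raw count of C646 replicate 3 lay above that of DMSO replicate 2. The log2 fold change was −1.32 (SE 0.38, adjusted p = 0.00477, edgeR's quasi-likelihood test), 0.49 below the median of all genes, and the T > C odds fell by 1.56 (SE 0.32, adjusted p = 0.000268). All reads came to 723, 438 and 606 under DMSO and to 538, 607 and 999 under C646 (log2 fold change 0.16, SE 0.16, adjusted p = 0.472). The HDAC7 entry overlaps SLC48A1 on the opposite strand.

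Both calls in T > C reads lay close to the threshold. HDAC4 lost it without DMSO replicate 1, DMSO replicate 2 or C646 replicate 3 (log2 fold changes −1.28, −1.10 and −0.99, adjusted p = 0.0154, 0.0329 and 0.0182 by edgeR's quasi-likelihood test), and HDAC7 without DMSO replicate 1, DMSO replicate 3 or C646 replicate 2 (−1.37, −1.03 and −1.04, adjusted p = 0.0160, 0.0670 and 0.0316). Scaled by TMM on T > C reads, HDAC4 was at −0.40 (adjusted p = 0.419) and HDAC7 at −0.49 (adjusted p = 0.350), and with the totals of all filtered reads as library size they were at −1.05 (adjusted p = 0.0183) and −1.10 (adjusted p = 0.0212), past the fold threshold but not that on p. The T > C odds of HDAC7 were called lower whichever library was left out, with log2 changes of −1.73 to −1.33. Those of HDAC4, −1.36 (SE 0.39, adjusted p = 0.00436), were called without C646 replicate 2 only, and without each of the other 5 libraries the adjusted p was 0.0119 to 0.0224 at log2 changes of −1.43 to −1.24.

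HDAC5 (Entrez 10014) had few T > C reads, 3, 12 and 11 in DMSO and 2, 2 and 3 in C646. DMSO replicate 1 stood at the level of the C646 libraries. In scaled CPM the groups were apart only by 0.316 in that library against 0.298 in C646 replicate 3. Over the 3 libraries of each group together, 26 of 339 reads (7.67%) and 7 of 513 reads (1.36%) were T > C reads. The 26 and 7 T > C reads themselves, scaled by the library totals and not taken as a share of the HDAC5 reads, were 3.97-fold lower in C646 (95% exact interval for counting error only, 1.68 to 10.8). In the fits without a filter on low counts, which include the spread between libraries, the log2 fold change of HDAC5 was −2.01 (adjusted p = 0.0960, edgeR's quasi-likelihood test), which did not pass, and its T > C odds were called lower at −2.49 (adjusted p = 0.00244). All reads of HDAC5 came to 128, 117 and 94 under DMSO and to 112, 122 and 279 under C646, with overlap (log2 fold change 0.45, SE 0.25, adjusted p = 0.187, edgeR's quasi-likelihood test). C646 replicate 3 was the highest, and without it the log2 fold change was 0.08. The HDAC5 entry overlaps G6PC3 on the opposite strand.

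HDAC9 had a lower share of T > C reads in C646 at nearly the same T > C reads. The T > C reads (Entrez 9734) came to 43, 27 and 47 under DMSO and to 42, 34 and 46 under C646, and the groups overlapped (log2 fold change −0.03, SE 0.33, adjusted p = 0.939, edgeR's quasi-likelihood test, 0.79 above the median of all genes, and 0.81 when the T > C reads themselves set the TMM scaling). All reads came to 171, 119 and 196 under DMSO and to 255, 229 and 300 under C646, or 20.3 ± 5.33 and 30.5 ± 2.91 scaled CPM (SD, n = 3 each), without overlap. The log2 fold change in all reads was 0.59 (SE 0.20, adjusted p = 0.0353), which did not pass. The share of T > C reads went from 23.9% ± 1.23 to 15.6% ± 0.833 (SD, n = 3 each), without overlap, and the T > C odds changed by −0.78 (SE 0.36, adjusted p = 0.0613), which was not called.

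The reads of HDAC9 fall on a pair of transcript ends. At the shorter end (GRCh38, chromosome 7, 18666213 to 18668843, plus strand) 13 coding transcripts of GENCODE release 44 end, for proteins of 506 to 654 amino acids. These are the forms that lack most or all of the deacetylase domain and keep the part that binds MEF2. At the longer end (18996063 to 19002414) 4 coding transcripts end, for proteins of 1025 to 1069 amino acids, which hold that domain. The entry at the shorter end also overlaps a coding exon of the transcript marked as canonical, which reaches the longer end. Reads there can therefore also come from longer transcripts, and their part was not tested.

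At the shorter end, T > C reads came to 20, 17 and 27 under DMSO and to 8, 13 and 18 under C646, while all reads came to 112, 73 and 126 under DMSO and to 166, 166 and 215 under C646. At the longer end, 23, 10 and 20 T > C reads in DMSO stood against 34, 21 and 28 in C646, and 59, 46 and 70 reads in all against 89, 63 and 85. The share of T > C reads therefore went from 20.9% ± 2.76 to 7.01% ± 1.91 at the shorter end, without overlap, and from 29.8% ± 8.68 to 34.8% ± 2.93 at the longer end, with overlap (SD, n = 3 each).

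Tested entry by entry across 7871 entries, an alternative added after the data were seen, the T > C odds of the shorter end were called lower (log2 change −1.78, SE 0.46, adjusted p = 0.00239, edgeR's quasi-likelihood test), as were 36.9% of all entries. Those of the longer end changed by 0.33 (SE 0.53, adjusted p = 0.594). In T > C reads scaled by all reads neither end passed, with log2 fold changes of −0.84 (adjusted p = 0.145) at the shorter and 0.58 (adjusted p = 0.268) at the longer end. The log2 ratio of T > C reads at the longer to those at the shorter end was −0.32 ± 0.48 in DMSO and 1.11 ± 0.79 in C646 (SD, n = 3 each), a difference of 1.43 without overlap (p = 0.1 in the two-sided exact permutation test, the smallest possible). The same ratio in all reads was −0.81 ± 0.13 and −1.21 ± 0.27 and overlapped, with a difference of −0.40 (p = 0.2, exact permutation test).

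Of class IIb, HDAC6 is the tubulin deacetylase and HDAC10 a polyamine deacetylase. HDAC6 (Entrez 10013) had 12, 8 and 9 T > C reads in DMSO and 8, 5 and 9 in C646, with overlapping raw counts. Scaled by all reads the groups did not overlap, at 1.20 ± 0.0792 and 0.855 ± 0.225 CPM (SD, n = 3 each), while the shares of T > C reads did. In the fit without a filter on low counts its log2 fold change was −0.48 (SE 0.71, adjusted p = 0.620, edgeR's quasi-likelihood test), with a 95% interval from −1.88 to 0.92, so that a change of the size seen in HDAC4 or HDAC7 could not be detected at this depth. All reads came to 193, 194 and 131 under DMSO and to 131, 167 and 168 under C646 (log2 fold change −0.25, SE 0.20, adjusted p = 0.361).

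HDAC10 (Entrez 83933) was the member that was lower in both new and total RNA. Its T > C reads came to 11, 10 and 7 under DMSO and to 0, 0 and 0 under C646. Over the 3 C646 libraries together this was 0 of 314 reads, which allows a share of up to 0.955%, against 28 of 710 reads (3.94%) in DMSO. Counted against 3 reads over the C646 group, new HDAC10 reads were at least 9.98-fold lower, a bound that covers the counting error of the C646 reads only and takes the 28 DMSO reads as counted. In the fits without a filter on low counts, where 20.1% of 13289 genes were called lower in T > C reads and 23.8% in T > C odds, HDAC10 was called lower in both (adjusted p = 0.000457 and 0.000490, edgeR's quasi-likelihood test).

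All reads of HDAC10 came to 257, 234 and 219 under DMSO and to 129, 121 and 64 under C646, each C646 library lying below each DMSO library. The level went from 29.7 ± 2.68 to 12.7 ± 5.65 scaled CPM (SD, n = 3 each), a log2 fold change of −1.23 (SE 0.28, adjusted p = 0.00427, edgeR's quasi-likelihood test). The C646 libraries were all below the DMSO libraries in 23.1% of the 10851 genes tested. Without DMSO replicate 1, 2 or 3 or C646 replicate 2 the adjusted p was 0.0138, 0.0202, 0.0133 and 0.0118 at log2 fold changes of −1.29, −1.17, −1.23 and −1.36, and without C646 replicate 3, the lowest library, the log2 fold change was −0.89 (adjusted p = 0.00395), so that each of these 5 ended the call.

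The HDAC10 entry lies on chromosome 22 at 50245184 to 50245506, minus strand, and 57 of its 323 bases overlap an exon of a MAPK12 transcript (50245450 to 50245530) on the same strand in GENCODE release 44. Reads there cannot be told apart between the genes. On the opposite strand the entry overlaps ENSG00000288871. The reads of the entries listed for MAPK12 itself came to 259, 205 and 171 under DMSO and to 128, 103 and 126 under C646, and its T > C reads 14, 3 and 7 in DMSO and 0, 1 and 1 in C646. They were also lower in C646, and the part of MAPK12 transcripts in the HDAC10 counts was not tested.

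The conversion rate, the conversions per T base covered, counts covered T bases rather than reads and gave lower values in C646 for all 10 members without overlap between the groups. The same held for 65.8% of the 7468 genes averaging 100 or more reads per library. By reads, the C646 libraries lay below the DMSO libraries in the share of T > C reads for 7 of 10 members (64.4% of those genes) and in scaled T > C reads for 7 of 10 (56.7%). The mean rate in C646 was 60.2% of that in DMSO for HDAC9, 56.2% for HDAC4 and 54.6% for HDAC1, the members that kept most of it, against a median of 46.3% and quartiles of 30.6% and 65.9% over 7465 genes.

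HDAC6 kept 46.6% and HDAC3 40.1%. HDAC2, HDAC7, HDAC8 and HDAC5 kept 33.1%, 29.2%, 28.8% and 24.5%, and HDAC10 had no conversion counted in C646. For HDAC4 the rates were 1.72%, 1.65% and 1.90% in DMSO and 0.910%, 1.05% and 0.997% in C646. For HDAC1 they were 0.210%, 0.300% and 0.222% in DMSO and 0.145%, 0.134% and 0.120% in C646 (two-sided exact permutation test, p = 0.1 for each of the 10 members).

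Ratios of T > C reads between members of a class need no scaling between libraries, and 7 pairs were compared. The log2 ratio of HDAC1 to HDAC2 was −0.34 ± 0.23 in DMSO and 0.17 ± 0.16 in C646 (SD, n = 3 each), 0.50 higher in C646 and without overlap. In all reads the same ratio was lower in C646 without overlap, −0.19 ± 0.05 in DMSO and −0.45 ± 0.15 in C646, a difference of −0.26 (exact permutation test, p = 0.1). The T > C ratio of HDAC4 to HDAC9 was 0.37 ± 0.63 and −0.88 ± 0.54, 1.25 lower in C646 and without overlap. HDAC6 to HDAC10 went from 0.05 ± 0.33 to 3.93 ± 0.42, a value that depends on the pseudocount of 0.5 reads because HDAC10 was at 0. Each of the 3 had the smallest possible p of 0.1 in the two-sided exact permutation test and an adjusted p of 0.233 over the 7 pairs, so that none passed.

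The other 4 pairs, HDAC1 to HDAC3, HDAC3 to HDAC8, HDAC4 to HDAC5 and HDAC5 to HDAC7, overlapped, with differences from −0.25 to 0.61. Each of these differences moved when 1 library was left out. HDAC1 to HDAC3 came to 0.16 without C646 replicate 1 and 1.08 without C646 replicate 3, and HDAC3 to HDAC8 to −0.24 without C646 replicate 3 and 0.75 without C646 replicate 1. HDAC4 to HDAC5 came to −0.08 without DMSO replicate 3 and 1.03 without DMSO replicate 1, and HDAC5 to HDAC7 to −0.94 without DMSO replicate 1 and 0.37 without DMSO replicate 2. With the single entry of most reads per gene, HDAC1 to HDAC2 overlapped (difference 0.45, exact permutation test, p = 0.2), as did HDAC4 to HDAC9 (difference −0.42, p = 0.5).

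Where a gene had reads on 2 or more entries, the use of the main entry was compared. HDAC2 had 5 entries averaging 20 or more reads per library, of which the terminal one (chromosome 6, 113936156 to 113941088, minus strand, holding the stop codon and the 3′ UTR) took 73.1%, 71.0% and 76.4% of the reads in DMSO and 84.8%, 83.4% and 84.5% in C646. The C646 libraries were all higher, by 10.8 percentage points (two-sided exact permutation test, p = 0.1), in 1 of the 3 members with several such entries and in 16.8% of 572 genes of this kind. In T > C reads the share on this entry overlapped, at 80.5% ± 2.68 in DMSO and 83.5% ± 8.65 in C646 (SD, n = 3 each; exact permutation test, p = 0.8). The other 4 entries lie on coding exons in GENCODE. The reads of the terminal entry alone changed by 0.46 (SE 0.13, adjusted p = 0.0196, edgeR's quasi-likelihood test across entries). In HDAC8 and HDAC9, the shares of all reads on the main entry overlapped between the groups.

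The genes of the complexes and partners of the histone deacetylases were called lower at about the rate of all genes. Of 63 listed genes, 50 had enough T > C reads for the test, of which 18 (against 33.0% of all genes) were called lower and 1 (against 2.97%) higher, with a median log2 fold change of −0.93, against −0.83 over all genes. With TMM on the T > C reads, 2 of the 50 were called lower and 2 higher, against 602 lower and 706 higher of all 7722 genes. In T > C odds, 22 of the 50 were called lower and 0 higher, against 38.3% and 0.79% of all genes, with a median of −1.15. In all reads, 1 of 57 partner genes tested was called lower and 3 higher, against 1.88% and 5.89% of all genes. Those of the SIN3 complex, in which HDAC1 and HDAC2 sit, were called lower in T > C reads for 5 of 12 genes tested, with a median of −1.0.

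The scaffold SIN3A had 255, 189 and 173 T > C reads in DMSO and 35, 29 and 31 in C646 (log2 fold change −2.77, SE 0.24, adjusted p = 9.69e-11, edgeR's quasi-likelihood test), the largest fall of the 50 genes tested. Within this complex SAP130 and ING2 were at −2.54 and −1.79, and ING1 and RBBP4 were at −1.57 and −1.08. In all reads the complex had no gene called lower, and SAP30 was called higher at 2.96 (SE 0.40, adjusted p = 0.000149). SAP30 had 2, 4 and 2 T > C reads in DMSO and 2, 5 and 26 in C646. These were too few for the test and were high in C646 replicate 3 only.

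Of the NuRD complex, the nucleosome remodelling complex built on HDAC1 and HDAC2, 4 of 7 genes tested were called lower: MTA2 at −1.44, GATAD2A at −1.37, MTA1 at −1.25 and the remodeller CHD4 at −1.08. In the CoREST complex, 0 of 5 were called lower, and PHF21A was called higher, with 14, 7 and 15 T > C reads in DMSO and 23, 30 and 55 in C646 (log2 fold change 1.45, SE 0.45, adjusted p = 0.00768, edgeR's quasi-likelihood test). PHF21A, the subunit that reads unmethylated histone H3 tails, was also called higher in all reads at 1.79, as was the demethylase KDM1A at 1.04. In T > C odds 2 of the 5 CoREST genes were called lower, KDM1A at −1.57 (adjusted p = 0.00312, edgeR's quasi-likelihood test) and the scaffold RCOR1 at −1.53 (adjusted p = 0.00268), and PHF21A was at −0.41 (adjusted p = 0.434).

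In the NCoR complex, which holds HDAC3, the subunit GPS2 was called lower at −2.08. Of the MiDAC and MIER genes, 1 of 5 was called lower, MIER2 at −2.01. Among the partners of class IIa, 5 of 11 were called lower, with PRKD2, a kinase that drives class IIa proteins out of the nucleus, at −2.63, the transcription factors MEF2D and MEF2C at −1.90 and −1.63, and the 14-3-3 proteins YWHAH and YWHAQ at −1.68 and −1.04. PRKD2 was also called lower in all reads (−1.04, adjusted p = 0.00278, edgeR's quasi-likelihood test), the 1 partner gene of 57 tested that was, against 1.88% of all genes. It was not called in T > C odds (−1.62, adjusted p = 0.0236, same test). MEF2D had 1345, 685 and 793 T > C reads in DMSO and 218, 218 and 368 in C646, the most of these 5 genes. Of the other deacetylases, the class III and IV genes, 1 of 4 tested was called lower, SIRT7 at −1.64.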

How the data were processed

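3′ end libraries (QuantSeq) of 6 samples, 3 per group, were sequenced and base-called with CASAVA 1.9 per the submitters' processing notes. The authors mapped reads and counted T > C reads per 3′ UTR entry with SLAM-Dunk 0.4.1, and deposited, per library, read counts, T > C read counts, CPM and the coverage of T bases with the conversions on them. Of library entries with 1 T > C read, 46.0% to 49.1% held 1 conversion in DMSO and 59.7% to 63.2% in C646, so that the groups differed in this make-up. The study's methods count reads with 2 or more conversions as new, whereas these tables appear to count reads with 1 as well, so that a T > C read here can rest on 1 conversion, and the share of such reads without 4sU was not measured here. How strand was handled in counting is not given in the sources used here.

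Here, entry counts were summed per Entrez gene. The 10 members, the partner lists and the named genes were chosen with earlier results of these data known. All members were named, and of the partner lists the genes called in T > C reads, with values for at most the 3 largest changes in each direction and fold changes for the others called. KDM1A, RCOR1, SAP30 and MAPK12 were named after their values were seen. Some markers and partner genes are not reported here. Counts were tested with edgeR 4.0.16 (R 4.3.3, limma 3.58.1), its quasi-likelihood test and Benjamini-Hochberg adjustment over all genes tested, after its filter on low counts. T > C reads were fitted with the totals of all reads, scaled by TMM, as library size. T > C odds were fitted with a factor per library and a treatment term for T > C reads. A gene was called at an adjusted p of at most 0.01 and a log2 fold change of at least 1 in size. Two-sided exact permutation tests were used for single values (Python 3.11.15, scipy 1.17.1), for which 3 against 3 libraries allow no p under 0.1. Ratios used a pseudocount of 0.5 reads. Entries counted as having reads with at least 20 per library on average. The scripts were tested on simulated data. Alternatives were DESeq2 1.42.0, other scalings, other filters, the entry with the most reads, a replicate block and each library left out. The reads hold no molecular identifiers, so intervals and floors cover counting error only.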

Additional observations from a re-analysis of the deposited data

How the results depend on the processing

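Most member fold changes kept their direction and their side of the threshold: 133 of the values under other settings and 112 of those with a library left out did. The number of members called lower in T > C reads, 2, was 0 with TMM on the T > C reads, 0 with totals of all filtered reads (a setting chosen after seeing the data), 1 by DESeq2's Wald test (HDAC10) and 0 under a minimum of 50 T > C reads averaged over the libraries, where HDAC1, HDAC2 and HDAC3 were left. With a library left out it was 0 to 2 (0 without DMSO replicate 1), in all reads 0 to 1 in place of 1, and in T > C odds 1 to 5 in place of 4 (2 without DMSO replicate 2, 1 without DMSO replicate 3). Counts rose to 3 in T > C reads and 6 in T > C odds with no filter on low counts, and to 3 in T > C reads with no minimum fold change. Of the partner genes, 2 were called lower and 2 higher under TMM of T > C reads, in place of 18 and 1. Of all 7722 genes tested, 602 were lower and 706 higher under that scaling, in place of 2548 and 229. TMM on the T > C reads moved the median of all genes from −0.83 to 0.01, and HDAC1 reversed to 0.63, HDAC2 to 0.13, HDAC3 to 0.19 and HDAC9 to 0.81. With totals of all filtered reads, HDAC9 reversed to 0.17 in T > C reads, and HDAC1 and HDAC4 to 0.20 and 0.063 in all reads, where the median of all genes was 0.20. With the entry of most reads HDAC1 was at 0.000338 in all reads, and the log2 ratio of HDAC4 to HDAC9 differed by −0.42 in place of −1.25. With a pseudocount of 1 read, HDAC6 to HDAC10 differed by 2.98. The longer end of HDAC9 alone (an added setting) had T > C odds of 0.33. With a library left out, HDAC9 ranged from −0.19 to 0.20 in T > C reads, and in all reads HDAC1 from −0.041 to 0.037, HDAC4 from −0.34 to 0.046 and HDAC7 from −0.0020 to 0.26. The causes were not tested.

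Same-numbered libraries of the groups correlated in their deviations at 0.030 to 0.065 in T > C reads and −0.0014 to 0.23 in all reads, so that the numbers were not taken to pair them. In T > C reads each library correlated best with its own number, which is a hint from the data and not the design. With the replicate block 2 members were called lower in T > C reads, 1 in all reads and 4 in T > C odds, and 17 partner genes lower and 1 higher. Depth limits HDAC5, HDAC6 and HDAC10, with 0 to 12 T > C reads per library.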
